A study of Danio rerio with 15 samples.

Results

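Zebrafish embryos exposed to 100 µg/l of dibutyl phthalate (DBP) were compared with unexposed embryos of the same age, transcript by transcript. The 3 libraries at 100 µg/l (replicates A, C and E) were set against 2 control libraries at 0 µg/l (replicates D and E), which together are 5 of the 15 libraries of the series. Every transcript with at least 10 estimated counts in at least 2 of these 5 libraries was taken, which gave 30416 of the 46488 transcripts in the table. Of the transcripts in the table, 37692 were above 0 in at least 1 of the 5 libraries. Among those tested, 27170 were above 0 in all 5 and 3246 were at 0 in at least 1.

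All embryos were AB wild-type fish, held at their dose from the 256-cell stage and sampled whole at 120 h, when the mouth protrudes. The exposed embryos received DBP dissolved in fish water with no carrier solvent, and the controls received fish water alone. Each library came from a pool of 10 embryos out of a beaker of 30, and the 3 pools of each dose with the best RNA were sequenced. The other doses of the series were 5, 10 and 50 µg/l, and their libraries are given here only beside the results at 100 µg/l. Replicate letters name separate beakers, so p-values measure the spread between pools of embryos rather than between single embryos. A whole embryo holds every tissue, and in such bulk RNA fewer cells of a type and less RNA per cell cannot be told apart. The deposited tables give transcript identifiers without gene names, so tissue markers could not be looked up.

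DBP is a plasticiser that makes plastics flexible and leaches from them, and in rodents it is known to disturb the development of the male reproductive tract. The developing embryo relies on retinoic acid, a derivative of vitamin A that early on sets regional identity along the body, the hindbrain and the eye. Enzymes of the Cyp26 family degrade retinoic acid, and retinoid X receptors pair with other nuclear receptors to bring hormone and lipid signals to the genome.

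The libraries at 100 µg/l held 17.2, 24.0 and 28.0 M counts (M, mega) in replicates A, C and E, against 25.9 M in each control. The 10 most abundant transcripts took 12.3% to 14.1% of the counts at 100 µg/l and 10.6% to 11.9% in the 2 controls, with 13.1% in control replicate B. The remaining control, replicate B, lay far off in principal component analysis and was used only as a check. The sample labels put the outlier mark on control replicate D instead, so the numbers of transcripts at a threshold, apart, or on and off are also given without replicate D. No batch is named in the labels. Levels are given as CPM, the counts of a transcript relative to the total of its library after TMM scaling, which corrects that total for a few transcripts taking much of it.

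No transcript passed an adjusted p-value of 0.05 (edgeR quasi-likelihood test, Benjamini-Hochberg adjustment over all 30416), which is 0.0% of those tested. The lowest adjusted p-value was 0.0697, shared by 11 transcripts, and 13 (0.0427%) were under 0.1, with 8 higher and 5 lower at 100 µg/l. An unadjusted p-value under 0.05 was reached by 2817 transcripts (9.26%), of which 1460 were higher (4.8%) and 1357 lower (4.46%). Scaled by library totals alone, in place of TMM, the same test gave 975 higher and 1806 lower, so which direction was more frequent depended on the scaling. It depended on the libraries too. Without 100 µg/l replicate E, 6026 transcripts were at this unadjusted level, 2540 higher and 3486 lower, and without 100 µg/l replicate C 1695, 805 higher and 890 lower. Without control replicate D there were 1443, 955 higher and 488 lower, and without control replicate E 1258, 893 higher and 365 lower. These last 2 fits hold 1 control, so the exposed libraries alone give their spread and the lone control is assumed to vary like them. With control replicate B added, 1128 were higher and 1204 lower.

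Other tools called more transcripts from the same counts. DESeq2 called 1447 (4.76%), 747 higher and 700 lower. limma on log2(CPM + 0.5) called 106 (0.349%), 50 higher and 56 lower, and all 106 were also called by DESeq2. A single edgeR fit over the 14 libraries of all doses without control replicate B called 30 (0.0986%), 21 higher and 9 lower, and 15 transcripts were called by all 3 of these. With the replicate letter as a block, the fit over 14 libraries called none, and its lowest adjusted p-value was 0.116 (edgeR). The calls differed in kind between the tools. Of the 1447 from DESeq2, 1160 were above 0 in all 5 libraries, whereas 12 of the 106 from limma were, and of the limma calls 40 were at 0 in both controls and 52 at 0 in all 3 exposed libraries.

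The differences were small for most transcripts. The log2 fold change, 100 over 0 µg/l, had a median of 0.0033 and quartiles of -0.32 and 0.25, and the 5th and 95th percentiles were -1.15 and 0.91. Its size was under 0.5 for 71.4% of them. A difference of at least 1 on the log2 scale was found for 1352 transcripts with the higher value at 100 µg/l and for 1964 with the lower value there, and a difference of at least 2 for 582 and 501. Many of these large values came from transcripts with a count of 0 somewhere, whose fitted fold depends on how the zero is handled. Among the 27170 transcripts above 0 in all 5 libraries, 502 were higher and 971 lower by at least 1, and 43 and 77 by at least 2.

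**Figure D1:**
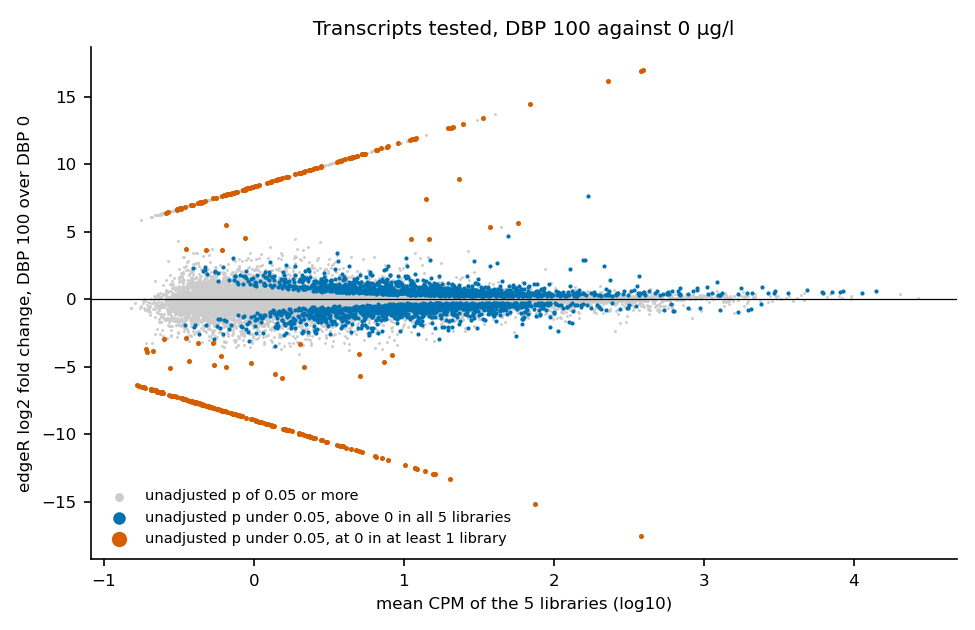
edgeR log2 fold change (100 over 0 µg/l, vertical axis) of the 30416 transcripts against the log10 of their mean CPM over the 5 libraries (horizontal axis). Grey points had an unadjusted p-value of 0.05 or more, blue points were below it and above 0 in all 5 libraries, and orange points were below it with a 0 in at least 1 library. The 2 slanted edges hold transcripts at 0 in all libraries of one condition, whose fitted values are no measured fold.

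The ranges of the 2 conditions were apart, with all exposed libraries above or all below the controls, for 9738 transcripts (32.0%). Of these, 4804 were higher at 100 µg/l (15.8%) and 4934 lower (16.2%). Scaled by library totals alone, 3543 were higher and 6082 lower. With control replicate B added to the controls, 2725 were higher and 2405 lower. Leaving out 100 µg/l replicate E gave 8538 and 8997, leaving out control replicate D gave 8397 and 8638, and leaving out control replicate E gave 7295 and 7799. Being apart asks for an order of all libraries used, so leaving a library out can only raise these numbers and adding one can only lower them. Libraries that do not differ by condition can also fall apart in this way, more often the fewer they are, and the share expected from that was not computed. With all 5 libraries, a mean difference of at least 1 on the log2(CPM + 0.5) scale was reached by 444 of the higher and 1119 of the lower transcripts.

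The share of transcripts with an unadjusted p-value under 0.05 differed between abundance classes. Abundance is given as the mean CPM over the 5 libraries. Under 1 CPM, 222 of 4250 transcripts (5.22%) reached it, from 1 to 10 CPM 1147 of 13936 (8.23%), from 10 to 100 CPM 1281 of 10992 (11.7%), and at 100 CPM and over 167 of 1238 (13.5%). The fold changes ran the other way, with a median size on the log2 scale of 0.59 under 1 CPM, 0.33 from 1 to 10 CPM, 0.19 from 10 to 100 CPM and 0.18 at 100 CPM and over. Rare transcripts therefore showed the wider differences and abundant ones the more frequent low p-values.

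Direction also varied with abundance. Under 1 CPM, 77 transcripts were higher at 100 µg/l and 145 lower, and at 100 CPM and over 123 were higher and 44 lower. Both of these majorities were also present with library totals alone, at 68 and 149 under 1 CPM and 97 and 75 at 100 CPM and over. With DESeq2 the majority under 1 CPM at an unadjusted p-value under 0.05 was on the other side, at 240 higher and 188 lower. The transcripts DESeq2 called in that class, after adjustment, were 50 higher and 104 lower. At 100 CPM and over DESeq2 gave 241 higher and 100 lower at the unadjusted level, and called 94 higher and 35 lower. Between 10 and 100 CPM the majority changed side with the scaling, with 715 higher and 566 lower under TMM and 432 higher and 836 lower under library totals. The class under 1 CPM also holds transcripts absent from one condition (described below), all with an unadjusted p-value under 0.05 (edgeR). The median one absent at 100 µg/l had 1.54 CPM in the controls, so its mean over the 5 libraries was under 1 CPM. The median one absent from the controls, at 3.50 CPM at 100 µg/l, was not in this class. Ranked by level, those absent at 100 µg/l from rank 64 to 169 had at most 2.43 CPM in the controls, so all were in this class. Those absent from the controls from rank 73 to 100 had at most 1.65 CPM at 100 µg/l, and were in it too. Most of the 145 lower transcripts were therefore absent at 100 µg/l. Without the transcripts absent from one condition, the edgeR majority of lower values under 1 CPM was not there.

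Transcript length divided the directions as well. Of the 3556 transcripts shorter than 500 bases, 219 were higher at 100 µg/l and 119 lower at an unadjusted p-value under 0.05, while of the 11114 transcripts of 1500 to 5000 bases 470 were higher and 590 lower. With library totals alone the short transcripts no longer had a majority of higher values, at 138 higher and 148 lower. The short class took 13.8%, 13.6% and 12.6% of all counts in 100 µg/l replicates A, C and E, against 12.5% and 12.0% in control replicates D and E. Control replicate B, at 14.6%, was above all 3 exposed libraries, and the part of library composition in the counts was not tested.

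**Figure D2:**
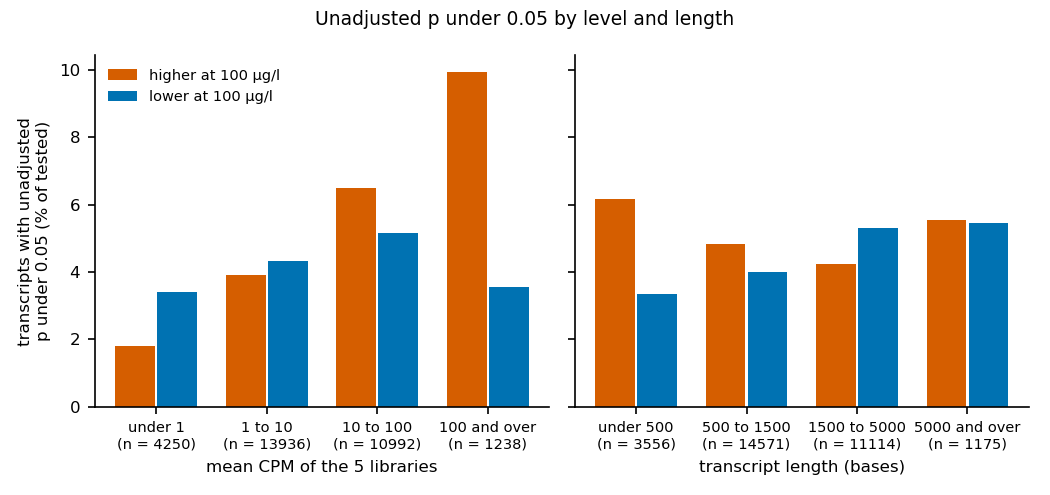
Percent of tested transcripts with an unadjusted edgeR p-value under 0.05, higher (orange) or lower (blue) at 100 than at 0 µg/l, by mean CPM of the 5 libraries (left) and by transcript length in bases (right), with the number tested under each class. The share with higher values was largest at 100 CPM and over, where 123 of 1238 transcripts were higher and 44 lower.

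Some transcripts were present in one condition and absent from the other. Transcripts with at least 10 counts in all 3 libraries at 100 µg/l and 0 in both controls (named on) numbered 100 (0.329%), and those with 0 in all 3 libraries at 100 µg/l and at least 10 counts in both controls (named off) numbered 169 (0.556%). A count of 0 allows up to 3 counts in a library, which is 0.113 CPM on average in the controls and 0.138 CPM on average at 100 µg/l, and these limits cover counting error only. Salmon divides reads between similar transcripts, so a 0 can also be a division in favour of another isoform, and genes cannot be told from isoforms here.

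Most on and off transcripts were of low abundance. The on transcripts had a median of 3.50 CPM at 100 µg/l and the off transcripts a median of 1.54 CPM in the controls. Of the on transcripts, 73 lay between 1 and 10 CPM and 4 at 100 CPM and over, and of the off transcripts 106 and 2. The 10 most abundant held 82.2% of the summed level of all on transcripts (2452 CPM) and 75.3% of that of all off transcripts (1891 CPM). Set against the limit of 3 counts per library, the median on transcript was at least 31.1-fold higher at 100 µg/l than in control replicates D and E. The median off transcript was at least 11.1-fold lower than in these 2 controls. Neither bound covers control replicate B, where the on transcripts had a median of 2.42 CPM and the off transcripts 0.632 CPM. In the libraries at 100 µg/l the median of the on transcripts was 2.72 to 3.64 CPM, so 31.1-fold is no lower bound against replicate B. By construction all on and off transcripts were apart between the conditions, and all had an unadjusted p-value under 0.05 (edgeR), but 6 on and 3 off transcripts had an adjusted p-value under 0.1 and none under 0.05.

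The definition asks for a state in all 5 libraries, so fewer libraries can only raise these numbers and more can only lower them. Without control replicate D there were 248 on and 423 off transcripts, without control replicate E 276 and 418, without 100 µg/l replicate E 209 and 338, without 100 µg/l replicate C 160 and 264, and without 100 µg/l replicate A 206 and 236. With control replicate B as a further control, 30 on and 91 off transcripts were left.

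The other doses did not enter the definition, and their libraries, like control replicate B with 67 on and 91 off transcripts, can only lie between its extremes. At least 10 counts were found for 36 to 39 of the 100 on transcripts in each library at 5 µg/l, for 55 to 69 at 10 µg/l and for 65 to 79 at 50 µg/l. Of the 169 off transcripts, 86 to 100 reached 10 counts in each library at 5 µg/l, 47 to 76 at 10 µg/l and 31 to 53 at 50 µg/l. Single transcripts were less regular than these counts. Only 4 of the on transcripts had at least 10 counts in all 9 libraries at 5, 10 and 50 µg/l, 2 were at 0 in all 9 and the other 94 were mixed, while of the off transcripts none had at least 10 counts in all 9, 5 were at 0 in all 9 and 164 were mixed.

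**Figure D3:**
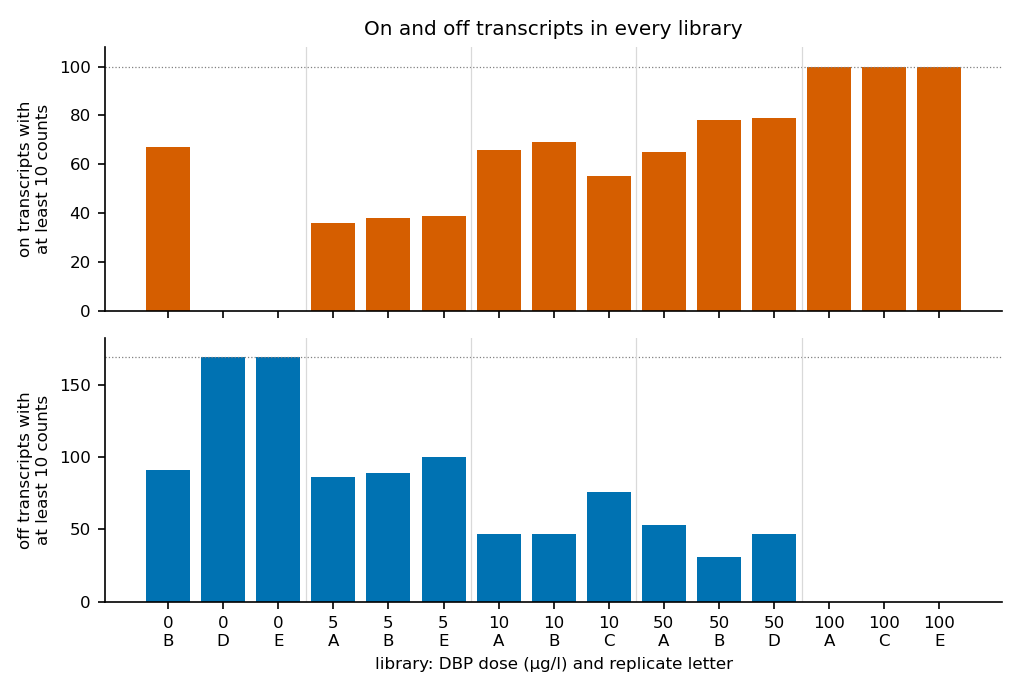
Number of the 100 on transcripts (top, orange) and of the 169 off transcripts (bottom, blue) with at least 10 counts in each of the 15 libraries, by DBP dose in µg/l and replicate letter, with dotted lines at 100 and 169. The counts at 100 µg/l and in control replicates D and E are fixed by the definition, and control replicate B had 67 on and 91 off transcripts at this level.

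Among the exposed replicates, A and E lay farthest apart with C between them, and E was the nearest to control replicates D and E. The distance between a pair of libraries was taken as the median absolute difference on the log2(CPM + 0.5) scale over the 30416 transcripts. Replicate E was 0.371 from replicate A and 0.262 from replicate C, against 0.242 from control replicate D and 0.224 from control replicate E. Replicates A and C were 0.237 from each other, and their mean distances from the controls were 0.385 and 0.294. Replicate A was thus about as far from the other exposed replicates as replicate E was, and it was the farthest from control replicates D and E. From control replicate B the order was another, with replicate E the farthest at 0.455, replicate A at 0.321 and replicate C at 0.312. Control replicates D and E were 0.200 apart. Among all 14 other libraries the nearest to 100 µg/l replicate E was 5 µg/l replicate E at 0.210, followed by control replicate E (0.224), 10 µg/l replicate C at 0.225 and control replicate D, all of them nearer than 100 µg/l replicate C. The nearest library to 100 µg/l replicate A was 50 µg/l replicate B at 0.188, and the nearest to 100 µg/l replicate C was 50 µg/l replicate D at 0.192. One library has no replicate of its own, so none of these distances was tested.

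**Figure D4:**
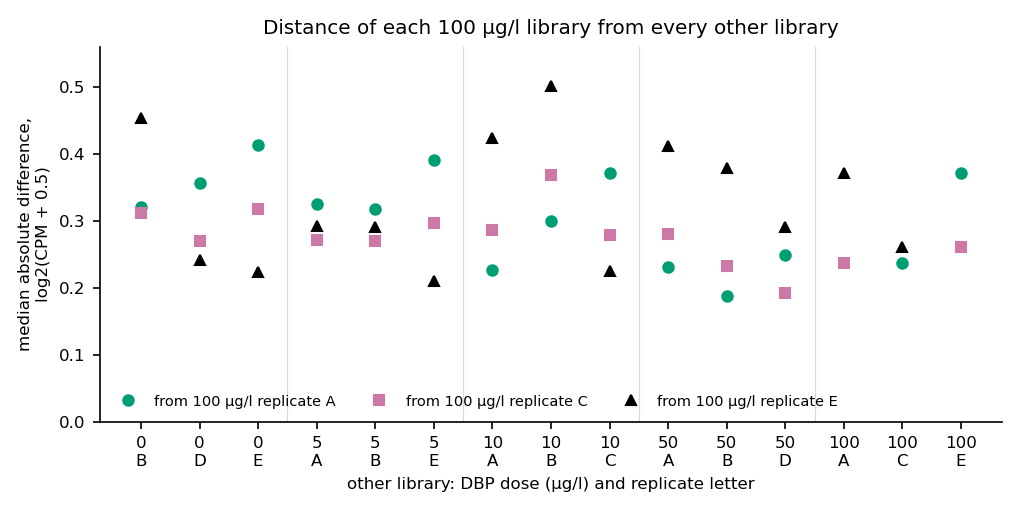
Median absolute difference on the log2(CPM + 0.5) scale over 30416 transcripts (vertical axis) between each 100 µg/l library (green circles for replicate A, pink squares for C, black triangles for E) and every other library (horizontal axis, DBP dose in µg/l and replicate letter). Replicate E lies at 0.242 and 0.224 from control replicates D and E, closer than replicates A and C do, but farther than they do from control replicate B (0.455).

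Counts of transcripts that differed between pairs of exposed replicates did not single out replicate E. Replicates A and E differed by at least 1 on the log2 scale in 4458 transcripts, replicates A and C in 2814 and replicates C and E in 2801. Leaving out an exposed replicate did single it out. Without replicate E, 6026 transcripts had an unadjusted p-value under 0.05 (edgeR), against 2520 without replicate A and 1695 without replicate C. The conditions were then apart for 57.7%, 42.1% and 39.4% of the transcripts, in the same order. Replicate C held the middle of the exposed values for 53.7% of the transcripts, against 25.0% for replicate A and 24.8% for replicate E. Replicate A was at least 1 log2 unit below both other exposed replicates for 1266 transcripts and above both for 374, and replicate E was below both for 502 and above both for 1158. Replicate A, which had the smallest total, was the only library at 0 for 424 transcripts that reached 10 counts in all the other 4, compared with 189 for 100 µg/l replicate C, 108 for 100 µg/l replicate E, 163 for control replicate D and 143 for control replicate E. Replicate E alone held at least 10 counts of 224 transcripts that were at 0 in the other 4, within the range of 171 to 242 over the 5 libraries. Among the exposed replicates only, replicate E, which had the largest total, alone held at least 10 counts of 647 transcripts at 0 in both others. This number was 439 for replicate C and 324 for replicate A. Conversely, replicate A alone was at 0 for 703 transcripts with at least 10 counts in both others, against 339 for replicate C and 327 for replicate E.

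Transcripts that replicates A and C put beyond the controls were less far beyond them in replicate E at the median. At a mean of at least 1 CPM, replicates A and C were both at least 1 log2 unit below both controls for 731 transcripts, and their medians against the control mean were -2.50 in replicate A, -1.72 in replicate C and -0.50 in replicate E. They were both that far above the controls for 235 transcripts, with medians of 2.93, 2.87 and 1.62 in replicates A, C and E. The same rule gave 200 lower and 199 higher transcripts for replicates C and E, and 232 lower and 183 higher for replicates A and E. Each set was chosen on its own pair of replicates and on both controls. The replicate left out of the pair is measured against the same controls, so its value is not free of the choice either. For the lower sets its median was -0.50 for replicate E, -2.19 for replicate A and -1.56 for replicate C, and for the higher sets 1.62, 2.14 and 2.20. The controls themselves differed in the set of 731, with a median of 0.28 for control replicate E minus D.

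The files pair no identifier with a gene name, and 15 transcripts could be named from the study's text used here. The study had picked or examined them on these libraries, so their direction is not independent evidence. All 15 were tested and none was called (background 0.0%). Their lowest adjusted p-value was 0.331 (edgeR), 7 had an unadjusted p-value under 0.05 (background 9.26%), 4 of them higher and 3 lower at 100 µg/l, and the median log2 fold change of the 15 was 0.05, against 0.0033 over all transcripts tested. The conditions were apart for 7 higher and 6 lower transcripts (background 15.8% and 16.2%), and overlapped for *cyp26a1* and *cyp26b1*. DESeq2 called 6 of the 15 (background 4.76%). Neither limma (background 0.349%) nor the edgeR fit over 14 libraries (background 0.0986%) called any, and at such low backgrounds none among 15 says little about them. Values below are in CPM, for replicates A, C and E at 100 µg/l and then for replicates D and E of the controls.

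The single transcripts examined of *cyp26a1*, *cyp26b1* and *cyp26c1* were near their control levels, whereas that of the receptor *rxraa* was lower in every exposed library. The retinoid proposal of the paper also draws on other retinol metabolism transcripts and on Hox transcripts, which were not examined here. *cyp26a1* (ENSDART00000041728.7), which encodes a retinoic acid-degrading enzyme, had 15.2, 15.2 and 13.0 CPM, against 15.7 and 13.3 CPM in the controls. Its log2 fold change was -0.0075, with an adjusted p-value of 0.990 (edgeR), and its sign depended on the setting. At 5, 10 and 50 µg/l its mean was 17.4 ± 1.29, 20.3 ± 1.06 and 19.3 ± 0.449 CPM (SD, n = 3 each). The paper selected it as deregulated over all doses, fitted no curve to it and, by eye, proposes a bell shape. *cyp26b1* (ENSDART00000110347.3), a second enzyme of the family, had 21.9, 20.9 and 27.5 CPM, against 23.2 and 22.0 CPM in the controls. Replicate E was the highest and replicates A and C the lowest of the 5, so the exposed values lay on both sides of the controls. *cyp26c1* (ENSDART00000077809.5), the third enzyme, had 8.13, 7.69 and 8.31 CPM, against 8.35 and 8.44 CPM in the controls, with a log2 fold change of -0.06. The conditions were barely apart, with replicate E next to control replicate D, and replicate B of the controls held 10.5 CPM.

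The transcript of *rxraa* (ENSDART00000080481.6), a retinoid X receptor, had 6.79, 5.85 and 7.23 CPM at 100 µg/l, against 9.49 and 10.6 CPM in the controls. All 3 exposed libraries were below both controls, and the difference of mean log2 values was -0.57 (standard error 0.11). The adjusted p-value was 0.455 (edgeR, log2 fold change -0.60), and DESeq2 gave 0.0248. Replicate B of the controls, at 9.31 CPM, was also above the exposed libraries.

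Genes of other roles that were lower at 100 µg/l included *slc9a3r1a* (ENSDART00000000069.8), a scaffold protein that anchors membrane transporters. It had 13.6, 13.1 and 17.7 CPM, against 21.3 and 29.5 CPM in the controls, a log2 fold change of -0.78 with an adjusted p-value of 0.460 (edgeR) and 0.0249 (DESeq2). Control replicate B, at 16.4 CPM, lay inside the exposed range, and with it as a further control the conditions overlapped. *dap* (ENSDART00000000070.7), a death-associated protein known in mammals as a regulator of autophagy, had 11.8, 12.8 and 15.0 CPM, against 17.9 and 22.1 CPM in the controls. The log2 fold change of *dap* was -0.60 and its adjusted p-value 0.465 (edgeR), against 0.0314 with DESeq2.

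For *tdh2* and *cdh11*, replicate E was nearer to the controls than to the other exposed libraries. *tdh2* (ENSDART00000001691.8), a threonine dehydrogenase, had 17.02, 15.5 and 25.1 CPM, against 26.9 and 27.0 CPM in the controls. *cdh11* (ENSDART00000002279.8), a cadherin of cell adhesion in mesenchyme, had 74.9, 70.0 and 89.5 CPM, against 98.0 and 91.1 CPM in the controls. Neither reached an unadjusted p-value of 0.05 with all 5 libraries, at 0.0971 for *tdh2* and 0.1005 for *cdh11* (edgeR). Without 100 µg/l replicate E these p-values were 0.00212 and 0.0155 (edgeR), in a fit where 20.4% of all transcripts tested were under 0.05. The 2 were grouped here because replicate E lay near the controls, so their lower p-values without it are no separate result. Control replicate B held 26.5 CPM of *tdh2*, above the exposed libraries, and 82.1 CPM of *cdh11*, inside the exposed range.

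The largest difference of the 15 was that of *unc45b* (ENSDART00000002164.9), a chaperone that folds muscle myosin. It had 49.6, 66.7 and 71.4 CPM at 100 µg/l, against 33.3 and 30.1 CPM in the controls. Every exposed library was above both controls, and above control replicate B at 35.1 CPM, and replicate E was here the farthest of the 3. The log2 fold change was 0.98, the difference of mean log2 values 0.95 (standard error 0.18), and the adjusted p-value 0.331 (edgeR). DESeq2 gave 3.59e-05, and over the other alternatives the adjusted p-value lay between 0.159 and 0.989. At 5, 10 and 50 µg/l the mean of *unc45b* was 35.0 ± 0.902, 32.1 ± 10.6 and 40.2 ± 4.99 CPM (SD, n = 3 each).

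*zgc:112437* (ENSDART00000002128.7), a claudin of tight junctions, had 13.1, 12.8 and 11.1 CPM, against 8.04 and 8.33 CPM in the controls. *trim101* (ENSDART00000002398.7), of the tripartite motif family, had 48.9, 55.3 and 45.7 CPM, against 39.6 and 33.6 CPM in the controls. DESeq2 called both, with adjusted p-values of 0.00844 and 0.0379, while edgeR gave 0.423 and 0.483. *yipf2* (ENSDART00000003133.10), a membrane protein of the Golgi, had 23.1, 23.5 and 24.1 CPM, against 16.9 and 20.3 CPM in the controls, and replicate B of the controls was at 22.6 CPM.

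The other 3 were higher in all exposed libraries without reaching an unadjusted p-value of 0.05. *pms1* (ENSDART00000002053.11), a DNA mismatch repair gene, had 8.07, 7.34 and 7.23 CPM, against 5.14 and 6.13 CPM in the controls. *mid1ip1l* (ENSDART00000003170.5), a relative of the mammalian MID1-interacting protein, had 22.2, 24.4 and 21.3 CPM, against 18.2 and 19.5 CPM in the controls, and control replicate B at 24.8 CPM was above all of them. *hspa4b* (ENSDART00000002469.7), a heat shock protein related to Hsp70, had 187.6, 191.7 and 193.4 CPM, against 187.4 and 172.6 CPM in the controls, so that replicate A and control replicate D differed by less than 1 CPM.

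Replicate E was the exposed library nearest to the control mean for 10 of the 15 transcripts, replicate A for 4 and replicate C for 1. *unc45b*, *yipf2* and *hspa4b* were among those in which it was the farthest.

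**Figure D5:**
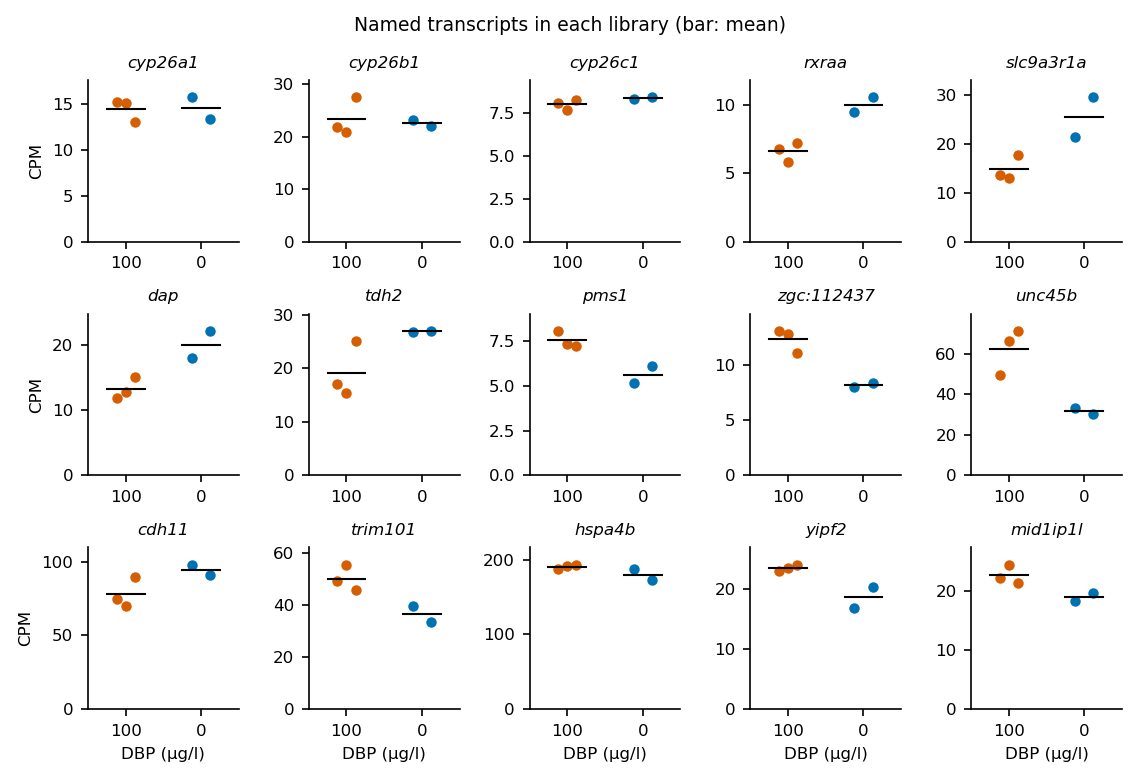
CPM of the 15 named transcripts in each library at 100 µg/l (orange, replicates A, C and E from left to right) and 0 µg/l (blue, replicates D and E), with a bar at each mean and each vertical axis starting at 0. Exposed and control values are apart for 13 transcripts and overlap for *cyp26a1* and *cyp26b1*.

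Among transcripts with no gene name, 4 had an adjusted p-value under 0.1 (edgeR) and counts above 0 in all 5 libraries, and they were singled out after their values had been seen. ENSDART00000137707.3 had 75.1, 86.3 and 82.3 CPM at 100 µg/l, against 3.95 and 2.21 CPM in the controls, a log2 fold change of 4.72 (adjusted p = 0.0697, edgeR). Its level was 1.197 CPM in control replicate B, 2.09 to 7.15 CPM at 5 µg/l, 53.8 to 61.6 CPM at 10 µg/l and 62.3 to 81.8 CPM at 50 µg/l, so every library from 10 µg/l upward was above every library below it. It was called by DESeq2 (adjusted p = 1.1e-88), limma (0.00537) and the edgeR fit over 14 libraries (0.00274), but not by that fit with the replicate letter as a block (0.255).

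ENSDART00000190943.1 had 22.1, 26.7 and 19.7 CPM at 100 µg/l, against 3.10 and 2.85 CPM in the controls, a log2 fold change of 2.94 with the same adjusted p-value of 0.0697 (edgeR). Here the levels at 5, 10 and 50 µg/l averaged 4.87 ± 3.09, 12.8 ± 3.07 and 20.8 ± 5.92 CPM (SD, n = 3 each), and control replicate B was at 0. The other tools differed on it, with adjusted p-values of 1.73e-37 in DESeq2, 0.0102 in limma and 0.0668 in the edgeR fit over 14 libraries.

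ENSDART00000076571.7 had 17.8, 14.1 and 19.6 CPM at 100 µg/l, against 122 and 107 CPM in the controls, a log2 fold change of -2.74 (adjusted p = 0.0697, edgeR). It was at 0 in control replicate B and in 50 µg/l replicate D, although the other 50 µg/l libraries held 94.6 and 43.7 CPM. ENSDART00000149492.3 had 27.4, 34.5 and 29.0 CPM, against 114 and 105 CPM in the controls, a log2 fold change of -1.85 (adjusted p = 0.0901, edgeR). Control replicate B held 150.1 CPM of it, and at 50 µg/l its 3 libraries lay between 10.2 and 39.4 CPM. DESeq2 called both, with adjusted p-values of 9.75e-54 and 1.67e-38, and so did limma, at 0.00932 and 0.0158. The edgeR fit over 14 libraries called neither, at 0.411 and 0.197.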

How the data were processed

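RNA of whole zebrafish embryo pools was sequenced as poly-A libraries with single reads of 75 bases. After trimming with Trimmomatic, the authors assigned reads to the GRCz11 transcriptome in Salmon 1.5.1 and deposited estimated counts per transcript without scaling. The deposited TPM values are those counts divided by effective length and brought to a common total, and were used here only to check the abundance classes. Transcript lengths were taken from the same files.

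Counts of the 5 libraries were rounded to whole numbers, scaled by TMM and tested with edgeR 4.0.16 (estimateDisp, robust glmQLFit, glmQLFTest; residual degrees of freedom 3) with a threshold of 0.05 on Benjamini-Hochberg adjusted p-values. A transcript needed at least 10 counts in at least 2 of the 5 libraries. Levels are CPM on TMM-scaled library sizes, with a pseudocount of 0.5 where log2 is used, which understates the change of low transcripts. DESeq2 1.42.0, limma 3.58.1, other scalings, filters and sets of libraries, the replicate letter as a block and each library left out in turn were alternatives. With 3 against 2 libraries no exact permutation test can reach 0.05. R 4.3.3 and Python 3.11.15 were used (matplotlib 3.10.9, scipy 1.17.1, pandas 2.3.3, numpy 2.4.6).

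The named transcripts were those that the study's text pairs with a gene (15, of which 4 identifiers were read after dropping a surplus zero), plus the 2 largest rises and falls among called transcripts. Since none was called, 4 transcripts with the lowest p-values and at least 10 counts in all 5 libraries were named in their place. Lists by gene symbol and tissue markers were not run, since the identifiers carry no symbols. The members, lists and tests were chosen with earlier results of these data known. The labels' protocol text gives 30 µg/l for the dose that titles and methods give as 50 µg/l, and 50 was used. The total counts of the libraries, 17.2 to 28.0 M, set the counting error, and the 3 and 2 pools per condition limit the precision of every comparison.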

Additional observations from a re-analysis of the deposited data

Results flagged for a closer look

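Control replicate B enters the tests of 100 against 0 µg/l only as an alternative, and it held transcripts that the other controls lacked. Of the 100 transcripts with at least 10 counts in every library at 100 µg/l and 0 in control replicates D and E, 67 had at least 10 counts in control replicate B and 30 were at 0 there. Their summed level was 1863, 2993 and 2501 CPM in 100 µg/l replicates A, C and E, against 1490 CPM in control replicate B. Of the 169 transcripts absent at 100 µg/l and present in control replicates D and E, 91 had at least 10 counts in control replicate B and 72 were at 0. The part of this library's distance from all others in these counts was not tested.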

How the results depend on the processing

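The count of 0 called transcripts (edgeR; 2817 at an unadjusted p-value under 0.05) was also 0 with control replicate B added or in place of control replicate D, with median-of-ratios scaling, library totals alone, no filter on low counts, a filter in 3 libraries, robust fitting off, unrounded counts, a threshold of 0.01 and each library left out. It was 3 with control replicate B in place of E (3 higher), 30 in the fit over 14 libraries (21 higher, 9 lower), 1447 with DESeq2 (747 higher, 700 lower) and 106 with limma (50 higher, 56 lower). No paired analysis was possible because replicates A, C and D of the 5 libraries have no partner in the other condition. In the fit over 14 libraries, the replicate letter as a block left 0 called (3050 at an unadjusted p-value under 0.05). Deviations of libraries of different doses with the same letter had correlations of -0.08 to 0.27 (median 0.11), against -0.47 to 0.53 (median -0.04) for different letters. Not every pair was over 0.1, so the letters were not taken as pairs. The 3 pairs with the letter E were all above 0, at 0.18 for 0 and 5 µg/l, 0.19 for 0 and 100 µg/l and 0.27 for 5 and 100 µg/l, and the nearest libraries to 100 µg/l replicate E were replicates E of those doses. It had higher correlations with 10 µg/l replicate C (0.53) and 50 µg/l replicate D (0.29), and those with all other letters were below 0. Its distance from 10 µg/l replicate C, 0.225, was close to that from control replicate E, 0.224. The 2 controls deviate as mirror images, at -0.19 and 0.19 with 100 µg/l replicate E. The number at an unadjusted p-value under 0.05 was 1550 with control replicate B in place of D and 4899 with DESeq2, and 1258 to 6026 with a library left out. Conditions were apart for 2725 higher and 2405 lower transcripts with control replicate B added, and for 5977 to 8538 higher and 6014 to 8997 lower ones with a library left out. With classes by TPM in place of CPM, the shares with an unadjusted p-value under 0.05 were 6.85% under 1, 9.73% from 1 to 10 and 17.9% at 100 and over. On and off transcripts numbered 30 and 91 with control replicate B added, and 160 to 276 and 236 to 423 with a library left out. The mean distance of 100 µg/l replicate E from replicates A and C was 0.236 with a pseudocount of 2, against 0.316, and still above that from the controls (0.177). The log2 fold change of *cyp26a1*, at -0.0075, was 0.011 with control replicate B in place of D, and -0.12 to 0.12 with a library left out (above 0 without 100 µg/l replicate E, at 0.066, and without control replicate D, at 0.12). That of *cyp26b1*, at 0.053, was -0.018 with library totals alone, and -0.079 (without 100 µg/l replicate E) to 0.13 with a library left out. Of 342 alternative values for named transcripts, 322 kept their direction and side of the threshold and 15 passed it in the same direction. The split by abundance and length class under other scalings was computed after the values had been seen. The causes of these changes were not tested. Low counts limit the rare classes.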
